A study of Homo sapiens with 4 samples.

Results

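The long arm of human chromosome 3 ends in the bands 3q26 to 3q29, and 45 protein-coding genes of these bands are described here in PANC-1, a cell line from a human pancreatic ductal adenocarcinoma, and in PZT-2, a clone made from it. The genes were chosen because neighbours on distal 3q had higher RNA levels in PZT-2, so their difference between the cell lines is how they were found. No p-value is given for a member. Whether a member passed the threshold of the fit over all genes (adjusted p of 0.05) only describes its difference beside the spread of its replicates, and supports nothing. Of the 45, 44 had counts among the 15221 genes named in the count table, and all 44 were among the 15101 genes tested. DGKG, a diacylglycerol kinase, has no value here.

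Both cell lines were grown in DMEM with serum and taken at passages 12 to 13, with 2 libraries each. PANC-1 had received no vector. PZT-2 had been transduced with lentiviral shRNAs against H2A.Z.1 and against both H2A.Z.2 isoforms, histone variants that replace H2A in nucleosomes beside transcription start sites. PZT-2 is 1 clone, so the knockdown and other differences between this clone and the parental cells cannot be told apart, and cells with a scrambled shRNA are not analysed here. DNA was not measured, only RNA.

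Distal 3q carries genes of many pathways side by side, among them PIK3CA, which encodes the catalytic subunit of a PI3 kinase, and genes for translation factors, ubiquitin enzymes and membrane proteins. Extra copies of the region are frequent in squamous carcinomas of lung, cervix and head and neck. Genes that lie next to each other can share a chromatin domain and, where they start head to head, a promoter, while their products need have nothing in common.

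Read counts recovered from the deposited table came to 12857212 and 15713289 for PANC-1 and to 13950884 and 14175637 for PZT-2. H2AFZ, which encodes H2A.Z.1, stood at 6209.5 ± 251 normalized counts in PANC-1 against 2235 ± 32.8 in PZT-2 (mean ± SD, n = 2 each), and its log2 fold change was -1.47 by edgeR (adjusted p = 6.21e-05). H2AFV, which encodes the H2A.Z.2 isoforms, stood at 3397 ± 76.4 against 2653 ± 90.2, with a log2 fold change of -0.36 by edgeR (adjusted p = 0.00566). Normalized counts are counts per effective library size, brought to the size of an average library, and every log2 fold change is PZT-2 over PANC-1. Of the markers of epithelial and ductal cells, KRT8, KRT18 and KRT19 were abundant in both lines and lower in PZT-2. KRT8 went from 41435 to 18426 normalized counts, KRT18 from 21689.7 to 12412 and KRT19 from 22695 to 13714, with log2 fold changes of -1.17, -0.81 and -0.73 (adjusted p = 5.97e-05, 2.01e-04 and 2.42e-04, edgeR). VIM, which encodes vimentin, went from 105265 to 75539, a log2 fold change of -0.48 (adjusted p = 3.67e-04, edgeR). KRT7 and EPCAM were low, with 128 and 104 in PANC-1 and 106 and 91.9 in PZT-2, and did not pass the threshold. CDH1 went from 131 to 9.39, with 0 and 18.8 in the PZT-2 libraries. Its log2 fold change was -3.78 (adjusted p = 0.0104, edgeR). Of the markers of other cell types, PTPRC, CD3E and COL1A2 have no value here, PECAM1 had at most 12.4 normalized counts in any library, and COL1A1 went from 513 in PANC-1 to 153 in PZT-2. The part of these markers in the values below was not tested.

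Several members start head to head with another gene, and the bases just before their starts are shown for 4 such pairs. These were taken because they set a member beside a partner with a similar or a dissimilar value. The partner is also a member except for POLR2H. Each line holds the 30 bases before the transcription start, 5′ to 3′ on the gene's own strand, from RefSeq on GRCh38.p14, with each CpG in capitals.
POLR2H (plus strand, chr3:184361680-184361709): tgccctctgCGctgctcCGccCGcCGgccc
CLCN2 (minus strand, chr3:184361606-184361635): tgCGccagCGgCGccCGcCGggggccCGcc
FBXO45 (plus strand, chr3:196568630-196568659): CGagaggaacCGCGaaCGagctgggCGtgc
WDR53 (minus strand, chr3:196568555-196568584): CGaCGggattgggCGcCGgCGggtgaggtt
DNAJB11 (plus strand, chr3:186570690-186570719): tacCGggggcttctctcacCGggactCGgg
TBCCD1 (minus strand, chr3:186570319-186570348): gttttctctgtgctacaagccCGgaatttc
LMLN (plus strand, chr3:197960187-197960216): ggggcCGgCGCGggCGcagaggCGtcaCGc
IQCG (minus strand, chr3:197959992-197960021): gtgagtggggctgtgggaggaagaaaggct
The starts of POLR2H and CLCN2 are 105 bases apart, those of FBXO45 and WDR53 106, those of DNAJB11 and TBCCD1 402 and those of LMLN and IQCG 226. CpG dinucleotides in the 30 bases numbered 4 before POLR2H and 6 before CLCN2, and 5 before FBXO45 and before WDR53. They numbered 3 before DNAJB11 and 1 before TBCCD1, and 6 before LMLN and 0 before IQCG. Whether these numbers go with the values of the genes was not tested.

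Most members were higher in PZT-2, by a modest amount. The median log2 fold change of the 44 was 0.50, which is 1.41-fold, and the quartiles were 0.29 and 0.74. A positive value was found for 40 members and a negative one for GNB4, EPHB3, LPP and LMLN. The lower PZT-2 library exceeded the higher PANC-1 library for 40 members. The lines were separate in the opposite direction for 3, and those of EPHB3 overlapped. Of all genes tested, 33.3% were separate with PZT-2 above and 32.9% with PZT-2 below. In RNA from a whole culture, a change in how many cells express a gene and a change in RNA per cell cannot be told apart. An adjusted p of 0.05 in the fit over all genes was passed by 33 members, all higher in PZT-2, and by 14.7% of all genes as higher and 13.7% as lower. Since the members were chosen for this difference, nothing is read from their counts against these shares. Dropping any single library kept the members' median log2 fold change between 0.48 and 0.52.

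**Figure D1:**
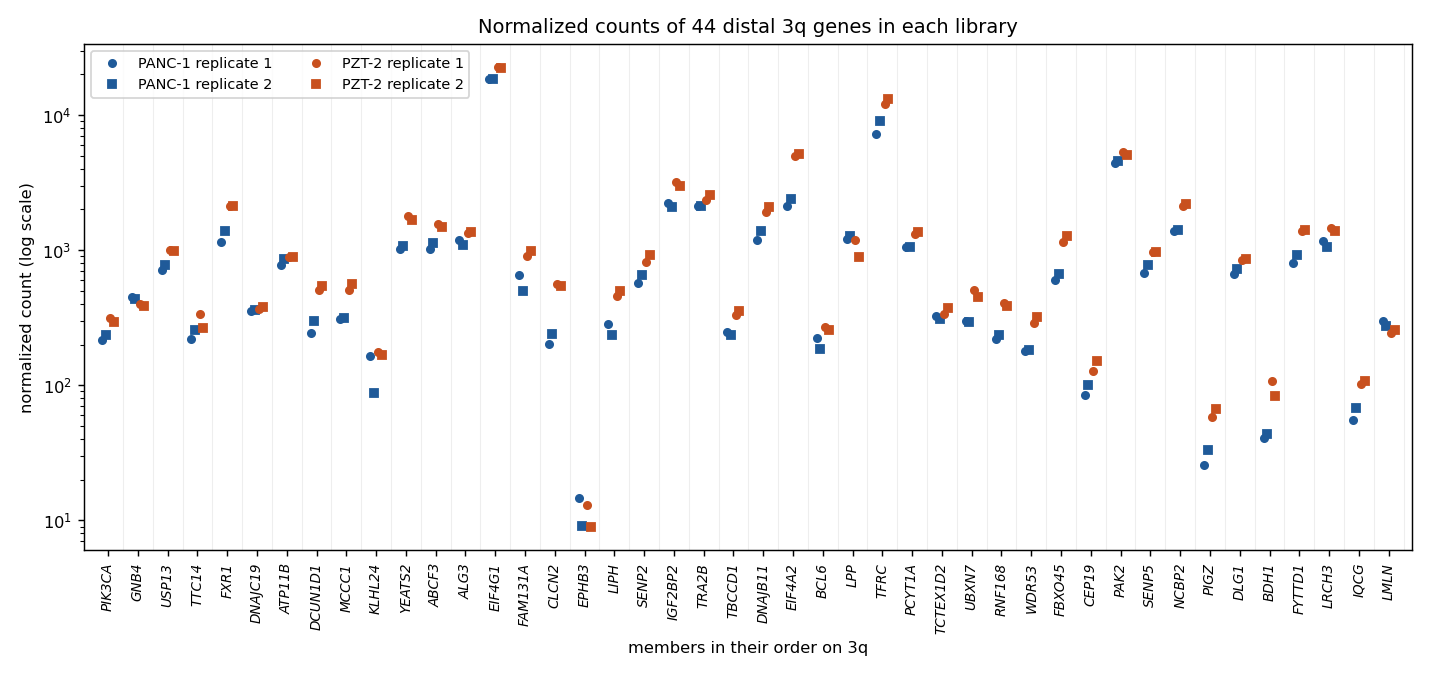
Normalized counts (log scale) of the 44 members in each of the 4 libraries, in their order on 3q, with PANC-1 in blue and PZT-2 in orange. The PZT-2 points lie above the PANC-1 points for 40 members and below them for GNB4, LPP and LMLN, and those of EPHB3 overlap near 10 counts.

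The 4 ways of setting 1 PZT-2 library against 1 PANC-1 library gave nearly the same picture. Their medians over the members ran from 0.48 to 0.53, with 40 or 41 of the 44 ratios positive. These 4 ways share libraries and the members were chosen for being higher in PZT-2, so nothing is read from their likeness. Replicates of PANC-1 differed from each other by a median of 0.13 on the log2 scale and those of PZT-2 by 0.08. KLHL24 differed most between the PANC-1 libraries, by 0.92, and EPHB3 between the PZT-2 libraries, by 0.56. The members together held 0.394% and 0.422% of all counts in the PANC-1 libraries and 0.568% and 0.575% in the PZT-2 libraries. EIF4G1, TFRC and PAK2 alone made up 50.3% to 53.6% of these counts. By size, 4 members had log2 fold changes above 1, 18 lay between 0.5 and 1, 12 between 0.25 and 0.5 and 6 between 0 and 0.25.

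Per length, the members covered a wide range of levels. EIF4G1, the scaffold of the cap-binding complex that starts translation, was the most abundant. It stood at 435 ± 7.99 TPM in PANC-1 and 553 ± 5.99 TPM in PZT-2 (mean ± SD, n = 2). TPM is a transcript abundance that takes length into account, computed here from the recovered counts and the effective transcript lengths that the authors deposited. TFRC, the receptor that takes up iron-loaded transferrin, stood at 207 ± 37.1 TPM in PANC-1 and 332 ± 18.1 TPM in PZT-2. EIF4A2, a helicase of the same translation complex, stood at 161 ± 18.8 TPM in PANC-1 and 373 ± 7.65 TPM in PZT-2. In PZT-2 the level of EIF4A2 was therefore above that of TFRC, while in PANC-1 it was below. EPHB3, a receptor for ephrins, was the least abundant at 0.362 ± 0.113 TPM in PANC-1 and 0.350 ± 0.0948 TPM in PZT-2.

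The 9 members that bind, splice, export or translate mRNA had a median log2 fold change of 0.51, and 7 of them passed the threshold. EIF4A2 had 2106 and 2409 normalized counts in the PANC-1 libraries and 4943 and 5116 in the PZT-2 libraries. Its libraries lay far apart between the cell lines, with a log2 fold change of 1.15 (standard error 0.0753). TRA2B, a splicing regulator, had the smallest difference of this group, with 2136 and 2116 normalized counts in the PANC-1 libraries and 2349 and 2537 in the PZT-2 libraries. All 4 libraries of TRA2B lay close together, and its log2 fold change of 0.20 (standard error 0.0623) did not pass. NCBP2, the small subunit of the nuclear cap-binding complex, had 1394 and 1413 normalized counts in the PANC-1 libraries and 2108 and 2180.1 in the PZT-2 libraries, and its replicates nearly coincided. FYTTD1, an adaptor for mRNA export, had 806 and 922 normalized counts in the PANC-1 libraries and 1377 and 1413 in the PZT-2 libraries. Both were well separated between the lines, with log2 fold changes of 0.61 and 0.69. FXR1, an RNA-binding protein of the fragile X family, had a log2 fold change of 0.74, IGF2BP2, which binds and stabilises mRNAs, 0.51, and the ATPase gene ABCF3 0.50. EIF4G1 passed with a small value, 0.29, and TTC14 did not pass at 0.33.

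Genes of the ubiquitin, SUMO and NEDD8 systems formed the other large group, and all 8 were higher in both PZT-2 libraries. Their median was 0.59 and 7 passed. DCUN1D1, which promotes the attachment of NEDD8 to cullins, had 245 and 297 normalized counts in the PANC-1 libraries and 510.4 and 539.8 in the PZT-2 libraries. FBXO45, the substrate-binding subunit of a ubiquitin ligase, had 603 and 663 normalized counts in the PANC-1 libraries and 1158 and 1277 in the PZT-2 libraries. Both genes had far higher counts in each PZT-2 library than in either PANC-1 library, with log2 fold changes of 0.95 (standard error 0.113) and 0.94 (standard error 0.0840). RNF168, a ligase that marks histone H2A at DNA breaks, and UBXN7, a cofactor of the p97 segregase, followed at 0.80 and 0.70. The SUMO proteases SENP2 and SENP5 had 0.49 and 0.40, and the deubiquitinase USP13 0.42. SENP5 was the smallest of the group, with 673 and 781 normalized counts in the PANC-1 libraries and 964 and 963 in the PZT-2 libraries. KLHL24, a substrate adaptor of cullin 3, had 165 and 87.7 normalized counts in the PANC-1 libraries and 176 and 167 in the PZT-2 libraries. PANC-1 replicate 2 stood low and the other 3 libraries were alike, and its log2 fold change of 0.46 (standard error 0.275) did not pass.

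Members with a part in mitochondria or lipid metabolism showed a high median, 0.76 over 5 members, of which 4 passed. BDH1, which interconverts the ketone bodies acetoacetate and beta-hydroxybutyrate, had 40.5 and 43.4 normalized counts in the PANC-1 libraries and 108 and 83.1 in the PZT-2 libraries. Counts of BDH1 were low, and the PZT-2 replicates differed more than the PANC-1 replicates, but the lines did not overlap, with a log2 fold change of 1.18 (standard error 0.219). LIPH, a phospholipase at the cell surface that makes lysophosphatidic acid, had 284 and 236 normalized counts in the PANC-1 libraries and 459 and 497 in the PZT-2 libraries. MCCC1, a subunit of a carboxylase of leucine breakdown, had 312 and 316 normalized counts in the PANC-1 libraries and 505 and 559.6 in the PZT-2 libraries. Both were clearly higher in PZT-2, by 0.89 and 0.76 on the log2 scale. PCYT1A, the rate-limiting enzyme of phosphatidylcholine synthesis, had 0.34. DNAJC19, a J-domain protein of the mitochondrial inner membrane, had 352 and 359 normalized counts in the PANC-1 libraries and 364 and 377 in the PZT-2 libraries. These 4 values of DNAJC19 lay within a narrow range, and the log2 fold change of 0.06 (standard error 0.0862) did not pass.

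Among the 3 members that carry solutes, lipids or iron across membranes, CLCN2, a chloride channel, had the highest log2 fold change of all members. It had 201 and 238 normalized counts in the PANC-1 libraries and 564 and 543 in the PZT-2 libraries. No other member had its libraries so far apart between the lines, and its log2 fold change was 1.33 (standard error 0.106). TFRC had 7258 and 9096 normalized counts in the PANC-1 libraries and 12108 and 13148 in the PZT-2 libraries, with the 2 PANC-1 libraries further apart than the PZT-2 libraries and a log2 fold change of 0.63 (standard error 0.105). ATP11B, a phospholipid flippase, had 771 and 853 normalized counts in the PANC-1 libraries and 889 and 891 in the PZT-2 libraries. PANC-1 replicate 2 came close to both PZT-2 libraries, and ATP11B did not pass at 0.13.

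All 3 members that fold proteins or build glycans in the endoplasmic reticulum passed. PIGZ, a mannosyltransferase of GPI-anchor synthesis, had 25.9 and 33.4 normalized counts in the PANC-1 libraries and 58.4 and 66.2 in the PZT-2 libraries. Few reads lie behind PIGZ, and its log2 fold change of 1.06 (standard error 0.253) has one of the larger errors. DNAJB11, a co-chaperone of BiP, had 1197 and 1379 normalized counts in the PANC-1 libraries and 1919 and 2091 in the PZT-2 libraries, with a log2 fold change of 0.64 (standard error 0.0868). ALG3, a mannosyltransferase of N-glycan assembly, was the least changed, with 1194 and 1099.8 normalized counts in the PANC-1 libraries and 1331 and 1367 in the PZT-2 libraries and a log2 fold change of 0.24 (standard error 0.0676).

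Of the 4 genes for proteins of centrosome, cilium or dynein, 3 passed. IQCG, a component of the dynein regulatory complex of motile cilia, had 55.1 and 67.8 normalized counts in the PANC-1 libraries and 103 and 108 in the PZT-2 libraries. The lines were separate for IQCG, with a log2 fold change of 0.77 (standard error 0.182). CEP19, a centriolar protein needed to start a cilium, had 84.4 and 100.3 normalized counts in the PANC-1 libraries and 127 and 150.3 in the PZT-2 libraries, and TBCCD1, which places the centrosome, had 249 and 236 normalized counts in the PANC-1 libraries and 328 and 355 in the PZT-2 libraries. Their log2 fold changes were 0.58 and 0.50. TCTEX1D2, a dynein light chain (DYNLT2B in RefSeq), had 327 and 310.0 normalized counts in the PANC-1 libraries and 336 and 375 in the PZT-2 libraries. PZT-2 replicate 1 lay only just above the PANC-1 libraries, and TCTEX1D2 did not pass at 0.16.

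Both chromatin genes were higher in PZT-2. YEATS2, which reads acylated lysines as part of a histone acetyltransferase complex, had 1018 and 1077 normalized counts in the PANC-1 libraries and 1792 and 1663 in the PZT-2 libraries and a log2 fold change of 0.72 (standard error 0.0691). BCL6, a transcriptional repressor, had 225 and 186 normalized counts in the PANC-1 libraries and 268 and 256 in the PZT-2 libraries and did not pass at 0.35 (standard error 0.128).

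Signalling genes were the group with the lowest median, 0.06 over the 6 with counts, and 3 of them passed. PIK3CA had 215 and 235 normalized counts in the PANC-1 libraries and 314 and 296 in the PZT-2 libraries. Its lines did not overlap, and its log2 fold change was 0.44 (standard error 0.106). DLG1, a scaffold of cell junctions, had 665 and 723 normalized counts in the PANC-1 libraries and 846 and 860.2 in the PZT-2 libraries, with a smaller log2 fold change of 0.30 (standard error 0.0740). PAK2, a kinase activated by RAC1 and CDC42, had 0.21, and both passed. GNB4, a beta subunit of heterotrimeric G proteins, had 447 and 432 normalized counts in the PANC-1 libraries and 399 and 387 in the PZT-2 libraries. Both PZT-2 libraries were a little lower, with a log2 fold change of -0.16 (standard error 0.0830) that did not pass. LPP, a LIM-domain protein of focal adhesions, had 1214 and 1282 normalized counts in the PANC-1 libraries and 1191 and 884 in the PZT-2 libraries. Only PZT-2 replicate 2 stood clearly apart for LPP, and the log2 fold change of -0.27 (standard error 0.134) did not pass. Without PZT-2 replicate 1, LPP passed as lower. EPHB3 had 14.6 and 9.04 normalized counts in the PANC-1 libraries and 13.1 and 8.90 in the PZT-2 libraries, too few to show a difference of the size the other members had, with a log2 fold change of -0.09 (standard error 0.493).

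Of the remaining 4 members, FAM131A had 650.4 and 502 normalized counts in the PANC-1 libraries and 912 and 977 in the PZT-2 libraries, and its log2 fold change was 0.72 (standard error 0.124). WDR53, a WD-repeat protein, was the highest of them with 180.0 and 183 normalized counts in the PANC-1 libraries and 288 and 317 in the PZT-2 libraries, and its log2 fold change was 0.74 (standard error 0.109). LRCH3, a protein with leucine-rich repeats, had 0.35. LMLN, a metallopeptidase, had 298 and 273 normalized counts in the PANC-1 libraries and 243 and 258 in the PZT-2 libraries. Both PZT-2 libraries were slightly lower and LMLN did not pass, with a log2 fold change of -0.19 (standard error 0.105).

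Along the arm, the difference did not sit at 1 place. Cut into 4 consecutive blocks of 11 members, the medians were 0.44 from PIK3CA to YEATS2, 0.50 from ABCF3 to TBCCD1, 0.64 from DNAJB11 to FBXO45 and 0.58 from CEP19 to LMLN. Members past the threshold numbered 6, 9, 8 and 10 in these blocks. CLCN2, EIF4A2, PIGZ and BDH1, the 4 above a log2 fold change of 1, did not lie together, except that PIGZ and BDH1 were close to each other near the end of the arm.

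Another 90 genes were tested between PIK3CA and LMLN, with a median log2 fold change of 0.48. They were taken by position, but the interval itself was chosen because neighbouring genes there were higher in PZT-2, so their values are a description too and no p is given for them. Of them, 40 passed as higher and 2 as lower. Protein-coding genes made up 62 of the 90, with 36 higher and 2 lower, and of the 28 others 4 passed as higher. The 5 most abundant of the 90 were PSMD2, RPL35A, AP2M1, P3H2 and DVL3. PSMD2, a subunit of the proteasome's regulatory particle, went from 10852 to 15732 normalized counts, a log2 fold change of 0.54. RPL35A, a protein of the large ribosomal subunit, went from 7148 to 9749, a log2 fold change of 0.45. AP2M1, a clathrin adaptor subunit, and DVL3, a transducer of WNT signals, had 0.51 and 0.59, and these 4 passed. P3H2, a collagen prolyl hydroxylase, did not pass, with 3316 and 3101 normalized counts and a log2 fold change of -0.10. FAM43A, which passed as lower, went from 2164 to 1308, a log2 fold change of -0.73. PEX5L, the other gene that passed as lower, had 9 and 6 counts in PANC-1 and 0 in both PZT-2 libraries, so against 3 counts a library it was at least 2.54-fold lower. The highest values, named here after they were seen, were those of ST6GAL1 at 3.21, LRRC15 at 3.04, LAMP3 at 2.96, MELTF at 2.39 and MCF2L2 at 2.11, all above that of CLCN2. In PANC-1 these 5 genes had at most 123 normalized counts in a library.

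The higher level was not particular to distal 3q. The 297 genes tested on 3q before PIK3CA had a median log2 fold change of 0.33, with 123 higher and 10 lower, and the 403 genes tested on 3p had 0.46, with 207 higher and 9 lower. Over all 836 genes tested on chromosome 3 the median was 0.43, the highest of 23 chromosomes. Chromosome 15 followed at 0.24, X was lowest at -0.29, and the 14265 genes not placed on chromosome 3 had -0.01. Of the members, 26 lay above the median of chromosome 3 and 18 below. Among protein-coding genes with a mean of at least 100 normalized counts, 75% of 40 members passed as higher, 73.3% of 45 other genes between PIK3CA and LMLN, 54.4% of 204 on 3q before PIK3CA, 69.9% of 276 on 3p and 19.4% of all 9726. A running median over 31 genes stayed above 0 wherever a full window of genes was available, which leaves out both ends of the chromosome, the last members included. It ran from 0.10 to 0.70 on 3p, from 0.13 to 0.48 on 3q before PIK3CA and from 0.31 to 0.69 between PIK3CA and LMLN. The differences between these stretches were not tested.

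In RefSeq, 14 pairs of a member and a gene on the other strand had starts within 1000 bases of each other, and in 9 pairs both genes were tested. In 7 of the 9 the signs were the same. A positive value was found for 117 of the 134 genes tested from PIK3CA to LMLN, so nothing is read from this count. FBXO45 and WDR53, both members, had 0.94 and 0.74, and DNAJB11 and TBCCD1, also both members, 0.64 and 0.50. FYTTD1 and its partner RUBCN, a regulator of autophagy, had 0.69 and 0.71. NCBP2 and NCBP2-AS2 had 0.61 and 0.62. Other pairs were unequal. CLCN2 had 1.33, while POLR2H, a subunit shared by the nuclear RNA polymerases, had 0.47 from the other side of the same 105 bases. CEP19 had 0.58, while PIGX, a partner in GPI-anchor synthesis, had 0.17 and did not pass. ALG3 had 0.24, while EEF1AKMT4, a lysine methyltransferase, had 0.03. LMLN and IQCG, both members, had opposite signs, -0.19 and 0.77, and so had LPP and LPP-AS2, -0.27 and 0.20, whose starts overlap. Libraries were made with a stranded kit, but the sources used here do not say whether the counting used strand, so genes that overlap on opposite strands, such as LPP and LPP-AS2 or IQCG and RPL35A, are uncertain.

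The members' promoters were also compared with those of all genes tested. RefSeq windows from 250 bases before to 50 after the start were at hand for 41 of the 44 members, 22 on the minus and 19 on the plus strand. Their median GC content was 65.7%, against 65.3% over the 10660 protein-coding genes tested that had a window. The median ratio of observed to expected CpG was 0.860 against 0.839. Searched on both strands, GGGCGG was found in 29 members' windows (70.7%, against 70.4% of all), CCAAT in 17 (41.5% against 36.2%), CCGGAAG in 5 (12.2% against 19.3%) and TATAAA in 4 (9.76% against 5.49%). The 4 with TATAAA were ALG3, EIF4A2, LIPH and TFRC. A match in letters is a description of the window only.

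Each transcript was also followed, since 27 members had several and 17 had 1. Of the members' 106 transcripts, 91 had a mean of at least 20 normalized counts. In 55 of these the lines were separate with PZT-2 above, in 5 with PZT-2 below, and in 31 the libraries overlapped. The same share was not taken over the transcripts of all genes. Since the members were chosen for being higher in PZT-2, nothing is read from these counts. The division of reads between transcripts of 1 gene is an estimate by kallisto. For YEATS2 the lines were separate in 1 transcript, NM_018023, which had 329 and 321 normalized counts in PANC-1 and 790.4 and 1100.2 in PZT-2. Among its other transcripts, NM_001351369 and NM_001351370 overlapped between the lines. NM_001351369 had 0.827 and 466 counts in the PANC-1 libraries and NM_001351370 had 666 and 259. The reads were thus divided differently between them in each PANC-1 library, and the part of 1 transcript in the gene's value is uncertain. NCBP2 was likewise higher in NM_007362, with 1095 and 1091 counts in PANC-1 and 1784 and 1796 in PZT-2, while its other 2 transcripts overlapped. KLHL24 divided in opposite directions. NM_017644 had 60.7 and 69.9 counts in PANC-1 and 123 and 126 in PZT-2, and NM_001349420 had 71.1 and 17.7 in PANC-1 and 0.393 and 0 in PZT-2. IGF2BP2 was higher in its main transcript NM_006548 and lower in the minor NM_001291869, which had 143 and 65.9 counts in PANC-1. For LMLN the lower value came with NM_033029, at 84.4 and 122 counts in PANC-1 and 35.5 and 70.9 in PZT-2. NM_001136049, its main transcript, overlapped between the lines, and with the most abundant transcript of each gene alone the log2 fold change of LMLN was 0.11. In LPP the main transcript NM_001167671 was lower, at 927 and 1077 counts in PANC-1 and 654 and 790.4 in PZT-2. NM_005578 of the same gene had 372 counts in PZT-2 replicate 1 and at most 122 in the other libraries. IQCG had 5 transcripts, and its most abundant one, NM_001323027, had nearly the same mean in both lines (log2 ratio 0.01), so the higher value of the gene lay in the other 4.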

How the data were processed

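Stranded mRNA libraries, 2 of PANC-1 and 2 of PZT-2, were sequenced as paired reads of 76 bases. The paper calls the replicates biological, and the labels do not say whether they came from separate cultures, so p-values measure the spread between these libraries. Per the processing notes of the submitters, reads were trimmed with Trim Galore 0.4.1 and quantified with kallisto 0.43.0, and tables were exported from sleuth 0.29.0. The labels name hg19, and the tables hold no coordinates. The estimated counts per transcript were deposited by the authors multiplied by 1 factor per library (0.935 to 1.16), which was read from the spacing of low values and undone. Between 0.5 and 30, 49.3% to 50.3% of the values of single-transcript genes were then whole to within 0.01, against 0.635% to 2.71% as deposited. TPM values were computed from the recovered counts and the effective transcript lengths that the authors deposited. They were scaled per library over the listed transcripts and summed per gene. The authors' own TPM values were not used. The authors' own sleuth comparison (effects, p and q values) was not used.

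Of 31077 transcripts, 27049 were named by the symbol in the deposited table, 3925 by accession in RefSeq, and 103, with 0.0466% of counts, had no name and were left out. Counts were summed per gene and rounded. Genes with at least 5 counts in 2 libraries were normalized by TMM and tested with the quasi-likelihood test of edgeR 4.0.16 (R 4.3.3, limma 3.58.1), with Benjamini-Hochberg adjustment over 15101 genes and a threshold of 0.05. Each standard error is the absolute log2 fold change divided by the square root of the F statistic of this test. It is derived from the test and not reported by the fit itself. The tests were checked on simulated counts. Alternatives were RLE size factors, DESeq2 1.42.0, a minimum of 10 counts in each of the 4 libraries or no filter, limma-trend on TPM values after adding 1 or 0.1 and taking log2, the replicate number as a block, the deposited counts with the factor, the most abundant transcript alone, each library left out and, chosen after the data were seen, the version 4 dispersion estimate of edgeR and, for members, transcripts labelled with a symbol alone. Gene order came from RefSeq on GRCh38.p14 and placed 15052 of the genes tested. The members, their role groups and these tests were chosen with earlier results of these data known. All members are named, in full for those with the largest and smallest values of each role group and for those of head-to-head pairs. Named among the other genes of the interval are the 5 with the highest mean and those past the threshold as lower. A further one of the cell type markers looked up is not reported here.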

Additional observations from a re-analysis of the deposited data

How the results depend on the processing

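The sign held in all 16 settings (the reported one and 15 alternatives) for 40 members above 0 and for GNB4 and LPP below 0. In every setting 14 members passed the threshold as higher. The matching count over all genes is not given here, so nothing is read from the 14. EPHB3, with about 10 counts, changed sign without single libraries, running from -0.42 to 0.28, and LMLN was 0.11 with the most abundant transcript alone. With that transcript alone, 20 members passed as higher, 19 of them among the 33, as did 26 of the other genes between PIK3CA and LMLN (1 lower), 71 on 3q before PIK3CA (4 lower) and 1134 of all genes (1000 lower). The other genes of the interval had 1 lower, FAM43A, in place of 2, also with limma-trend at either pseudocount, where PEX5L did not pass, with at least 10 counts in all 4 libraries, where it was not tested, and with DESeq2, which gave it no adjusted p, and 3q before PIK3CA had 4 lower with limma-trend. The median of the members was 0.54 with log2(TPM + 1) and 0.55 with log2(TPM + 0.1), and that of the other genes 0.39 with the former. The cause of these changes was not tested.

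With each library left out in turn, 18 to 32 members passed as higher and 0 to 1 as lower (LPP, without PZT-2 replicate 1). The other genes of the interval had 24 to 44 higher and 1 to 2 lower, 3q before PIK3CA had 70 to 134 and 4 to 11, and all genes 1023 to 2399 and 839 to 2181. Their medians ran from 0.48 to 0.52 for the members, 0.45 to 0.52 for the other genes and 0.26 to 0.37 for 3q before PIK3CA. The lowest counts came without a PZT-2 library, and a line left with 1 library was assumed to vary like the other. With the replicate number as a block, 31 members passed, with a median of 0.50. Same-numbered libraries did not deviate together (correlation -0.02 over genes), so the number is not taken to pair the samples. Transcripts labelled with a symbol alone gave 33 members. For this setting and the block, counts over all genes are not given here, so nothing is read from the 31 and the 33. Low counts limit EPHB3, PIGZ, BDH1 and IQCG most.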
